A study of Mus musculus with 3 samples.

Results

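SR proteins and heterogeneous nuclear ribonucleoproteins (hnRNPs), with their partners of the spliceosome, were examined in the hearts of Rbm20 I538T knock-in mice. The genes were chosen by symbol from a list of 34 splicing factors, and 31 of them had rows of their own in the deposited table, with 920 of its 469293 exonic parts. An exonic part is a stretch of a gene between neighbouring annotated exon boundaries. Hnrnpa3, Hnrnpm and Pcbp2 were joined in the table with an overlapping gene and carried no symbol, so that they are described separately by position.

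The hearts came from 12-week-old homozygotes, heterozygotes and wild-type mice. The mutants carried the I538T substitution in Rbm20, made by CRISPR/Cas editing of C57BL/6 zygotes with the founders crossed to C57BL/6J mice, on 2 alleles in the homozygotes and on 1 in the heterozygotes, and wild-type mice carried none. Each genotype was represented by 1 RNA-seq library, and the sources used here differ on whether its values stand for a representative library or an average over mice, and do not name the founder behind it. No difference between genotypes therefore has a replicate check, no p-value is given, and intervals cover counting error only. Amplified reads that carry no molecular identifier do not stand for separate molecules, and reads that span several parts are counted in each, so that these intervals are too narrow. In whole heart, fewer cells of a type cannot be told apart from less RNA per cell.

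SR proteins carry an RNA-binding domain and a tail rich in arginine and serine, bind exons and help the spliceosome to recognise them. hnRNPs coat nascent transcripts, and many of them repress the splice sites next to which they bind. Many members of both families limit their own level by splicing in a poison exon, an exon with an early stop codon that sends the mRNA to nonsense-mediated decay (NMD), or by keeping an intron. RBM20 is itself a splicing regulator of heart muscle, best known for the skipping of titin exons.

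Some of the poison exons described below are shown by the stretch from the first base of the exon to the stop codon in the reading frame of the annotated NMD transcript. All sequences are from GENCODE M21 (GRCm38), written 5′ to 3′ on the strand of the gene, with the stop codon in capitals.

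Srsf3 (chr17:29039454-29039487, plus strand): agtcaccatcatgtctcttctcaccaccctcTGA
Srsf7 (chr17:80205054-80205081, minus strand): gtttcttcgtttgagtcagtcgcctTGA
Srsf11 (chr3:158023310-158023359, minus strand): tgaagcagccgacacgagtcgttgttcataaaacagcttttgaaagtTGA
Tra2a (chr6:49252965-49253108, minus strand): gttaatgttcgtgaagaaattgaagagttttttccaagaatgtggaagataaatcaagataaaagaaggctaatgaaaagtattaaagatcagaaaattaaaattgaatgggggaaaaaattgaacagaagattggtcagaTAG
Tra2b (chr16:22259181-22259261, minus strand): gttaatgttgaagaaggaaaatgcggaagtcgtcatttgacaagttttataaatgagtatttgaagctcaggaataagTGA
Hnrnpl (chr7:28817335-28817393, plus strand): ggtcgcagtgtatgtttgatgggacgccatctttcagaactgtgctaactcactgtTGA
Hnrnpll (chr17:80044976-80045022, minus strand): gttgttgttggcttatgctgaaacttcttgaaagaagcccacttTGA

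The stop codon lay 28 bases into the exon in Srsf7 and 34 bases into it in Srsf3, against 144 bases in Tra2a and 81 bases in Tra2b. The Tra2a and Tra2b stretches shared their first 9 bases.

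For comparison, 4 coding exons in which the libraries differed are shown whole. The 63-base and 81-base exons of Hnrnpa2b1 are both multiples of 3 in length, and the pair of 67-base exons of U2af1 take each other's place in the mRNA. Capitals in the U2af1 pair mark the bases that differ.

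Hnrnpa2b1 (63 bases, chr6:51465179-51465241, minus strand): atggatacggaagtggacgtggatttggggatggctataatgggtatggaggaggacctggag
Hnrnpa2b1 (81 bases, chr6:51466142-51466222, minus strand): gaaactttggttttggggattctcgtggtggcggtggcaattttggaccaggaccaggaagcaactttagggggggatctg
U2af1 (upstream exon, chr17:31652502-31652568, minus strand): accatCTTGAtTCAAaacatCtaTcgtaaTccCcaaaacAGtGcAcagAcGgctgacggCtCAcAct
U2af1 (downstream exon, chr17:31651646-31651712, minus strand): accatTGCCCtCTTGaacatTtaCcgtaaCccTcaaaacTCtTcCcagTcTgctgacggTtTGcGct

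The U2af1 exons shared 44 of their 67 bases (65.7%) and differed at the other 23.

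The libraries held between 149633524 and 157990953 inclusion reads and between 31169020 and 34047593 exclusion reads. Rbm20 itself had 40.6 CPM in the homozygote, 36.0 CPM in the heterozygote and 37.2 CPM in wild-type, where CPM is the inclusion reads scaled to 1000000 per library. Of 6 cardiomyocyte markers, 5 were found, with summed levels of 33601 CPM in the homozygote, 35302 CPM in the heterozygote and 31352 CPM in wild-type. The 3 blood markers summed to 62978 CPM in the homozygote, 18956 CPM in the heterozygote and 50557 CPM in wild-type. The 6 macrophage and immune markers summed to 286 CPM in the homozygote, 508 CPM in the heterozygote and 458 CPM in wild-type, and the 4 smooth muscle and pericyte markers to 251, 306 and 214 CPM in the same order. The 7 small intestine markers summed to 0.570 CPM in the homozygote, 0.649 CPM in the heterozygote and 31.6 CPM in wild-type, and Reg3b, Fabp2 and Apoa4 had no read in either mutant library. The part of these differences in the results below was not tested. Markers of fibroblasts (3 of 4 found), endothelium (4 of 4) and dividing cells (3 of 4) summed to 949, 286 and 4.32 CPM in the homozygote, 890, 304 and 5.04 CPM in the heterozygote, and 955, 293 and 4.55 CPM in wild-type.

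The splicing factor genes were expressed at similar levels in the 3 libraries, and their relative order was much the same. To compare genes of different length, the level was taken as the median, over coding parts with a PSI of at least 95% in each library, of reads per 1000 read positions at a library total scaled to 1000000. PSI (percent spliced in) is the share of transcripts that contain a part, from inclusion and exclusion reads each divided by the number of read positions that can reveal them. Hnrnpa2b1, which encodes a repressor that also sorts RNAs, had the highest level per length in every library, at 67.3 in the homozygote, 74.2 in the heterozygote and 60.9 in wild-type. Hnrnpk, a binder of C-rich RNA, ranked second in each library with 41.1, 48.5 and 43.9 in the same order. Srsf5 and Srsf3 followed near the top, whereas Tra2a was lowest in each library, with 2.05 in the homozygote, 2.86 in the heterozygote and 2.35 in wild-type. Srrm1, a coactivator that bridges splicing enhancers and the spliceosome, was next to the lowest with 2.88, 3.002 and 3.02.

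**Figure D1:**
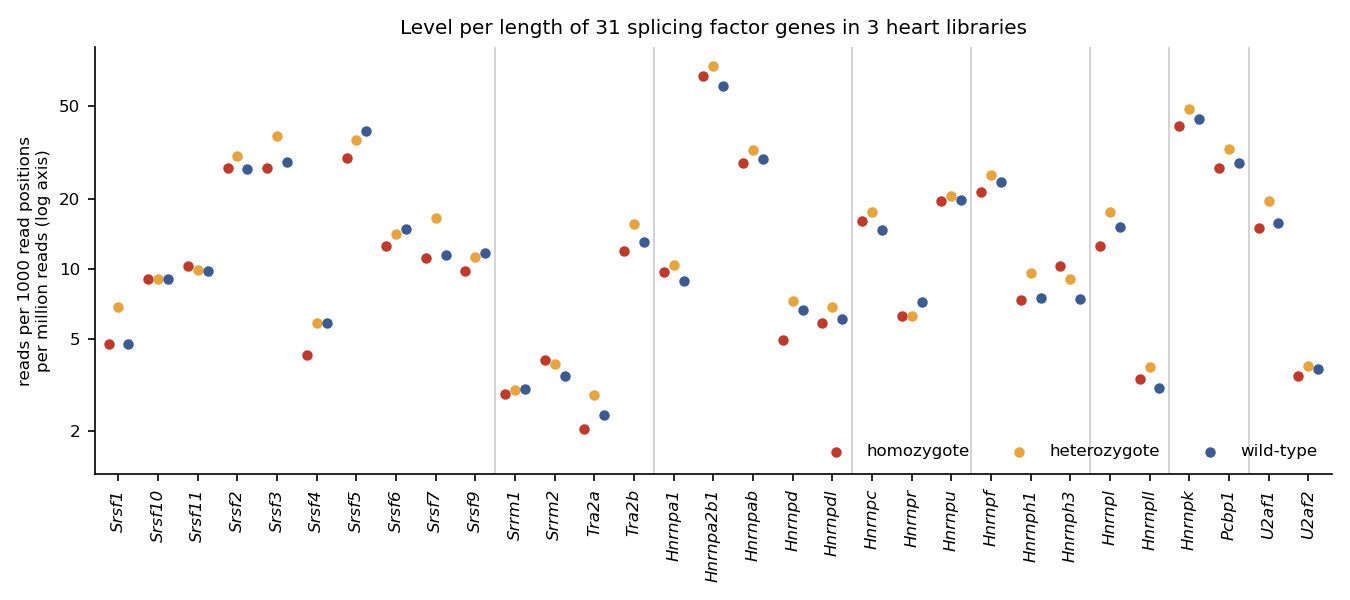
Level per length of the 31 genes, in reads per 1000 read positions and 1000000 reads on a log axis, with 1 point for the homozygote, the heterozygote and wild-type library and grey lines between role groups. Hnrnpa2b1 stands highest (60.9 to 74.2) and Tra2a lowest (2.05 to 2.86) in each library.

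At gene level most of the splicing factors were higher in the heterozygote than in wild-type, while the side on which the homozygote lay depended on the scaling. On the scale of log2 of CPM + 1, 29 of the 31 genes were above 0 in the heterozygote (51% of all 12862 genes that averaged 1 CPM or more were), and 7 of 31 were above 0 in the homozygote (33.9% of all genes). With median-of-ratios scaling, 16 of 31 were above 0 in the homozygote and 29 of 31 in the heterozygote. The median log2 ratio of the 31 genes was 0.15 in the heterozygote, against 0.0056 for all genes, and −0.06 in the homozygote, against −0.08 for all genes; with median-of-ratios scaling the homozygote's median turned to 0.035, against 0.0051 for all genes. Few genes were far from wild-type. A log2 ratio of at least 0.5 in size was reached by 0 of 31 genes in the homozygote, where 9.38% of all genes reached it, and by 1 of 31 in the heterozygote, where 6.83% of all genes did. Globin and mitochondrial genes took 15.6% of the reads in the homozygote, 9.42% in the heterozygote and 14.2% in wild-type, which bears on every CPM. With totals that leave these genes out, a setting chosen after seeing the data, the heterozygote's median was 0.078, against −0.06 for all genes, and 26 of 31 genes were above 0.

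**Figure D2:**
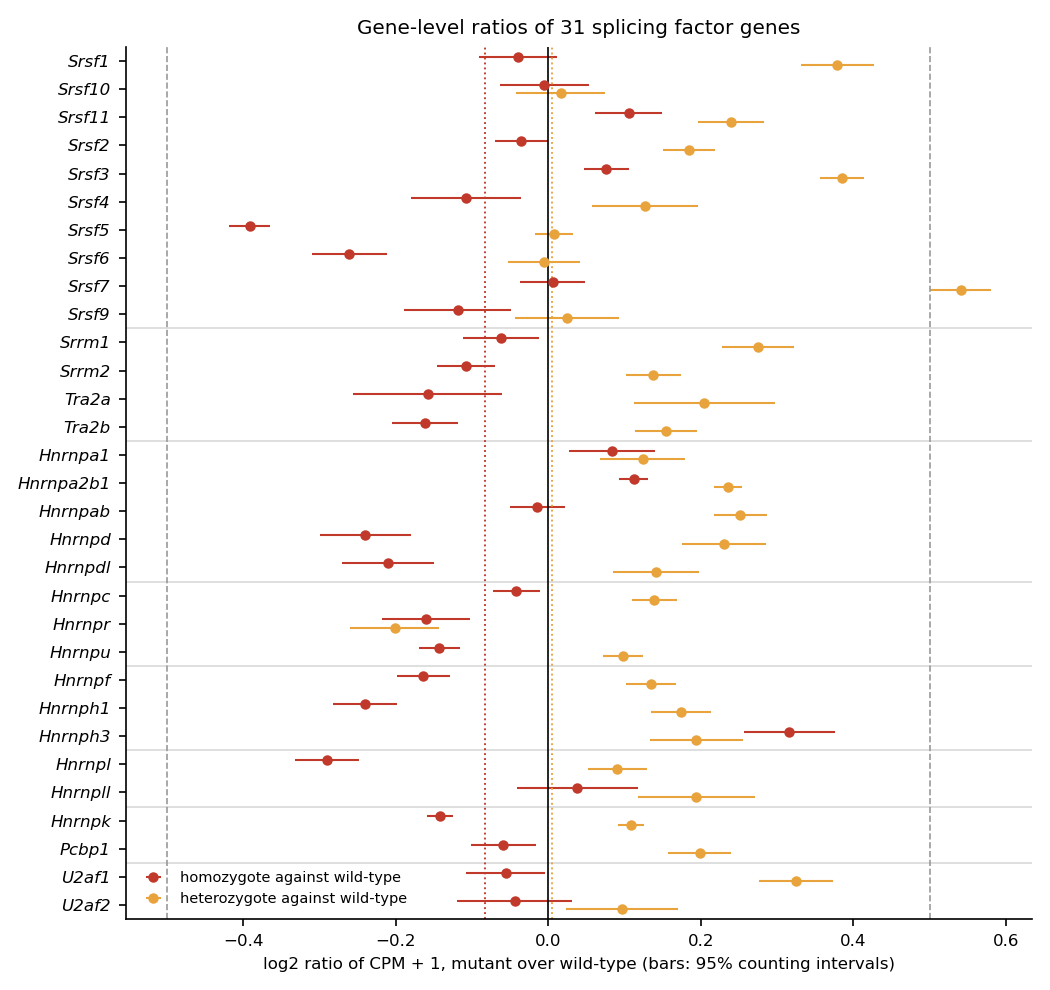
Log2 ratio of CPM + 1 over wild-type for the 31 genes, ordered by role group, for the homozygote and the heterozygote, with bars for the 95% counting intervals, dotted lines at the median of all genes and dashed lines at 0.5 in size. Srsf7 in the heterozygote (0.54) is the point beyond the dashed lines, and 29 heterozygote points lie above 0 with library totals as the scale.

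Among the 10 SR proteins, Srsf7, Srsf3 and Srsf1 had the highest ratios, all in the heterozygote. Srsf7, an SR protein with a zinc knuckle, had 55.1 CPM in the homozygote, 80.3 CPM in the heterozygote and 54.9 CPM in wild-type. The heterozygote stood well above the other libraries, which were alike, and the log2 ratio was 0.01 (−0.04 to 0.05) in the homozygote and 0.54 (0.50 to 0.58) in the heterozygote. Over parts with a PSI of at least 95% alone, the heterozygote's ratio was 0.49, and with totals that leave out globin and mitochondrial genes no member reached 0.5. Srsf3, the smallest SR protein, had 118 CPM in the homozygote, 147 CPM in the heterozygote and 112 CPM in wild-type, and Srsf1, a prototype of the family, had 38.2, 51.3 and 39.3 CPM in the same order. Their log2 ratios were 0.08 and −0.04 in the homozygote and 0.39 and 0.38 in the heterozygote. Srsf5 was the member lowest in the homozygote relative to wild-type. It had 128 CPM in the homozygote, 170 CPM in the heterozygote and 169 CPM in wild-type, so that the homozygote was alone below the other libraries, with a log2 ratio of −0.39 (−0.42 to −0.36). Srsf6 was low in the homozygote too, with 38.0 CPM against 45.5 CPM in the heterozygote and 45.7 CPM in wild-type. Srsf2, Srsf4, Srsf9, Srsf10 and Srsf11 had ratios from −0.12 to 0.11 in the homozygote and from 0.02 to 0.24 in the heterozygote.

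The 4 SR-related genes were below 0 in the homozygote (−0.16 to −0.06) and above 0 in the heterozygote (0.14 to 0.27). Tra2a and Tra2b, activators that bind GAA-rich exons, had 8.45 and 51.3 CPM in the homozygote, 11.1 and 64.1 CPM in the heterozygote, and 9.54 and 57.5 CPM in wild-type. Srrm1 and Srrm2, large coactivators of the nuclear matrix, had log2 ratios of −0.06 and −0.11 in the homozygote and 0.27 and 0.14 in the heterozygote.

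Among the hnRNPs, the ratios ran from −0.29 to 0.32 in the homozygote and from −0.20 to 0.25 in the heterozygote. Hnrnph3, of the family that binds G tracts, was the member highest in the homozygote relative to wild-type, with 30.6 CPM in the homozygote, 28.1 CPM in the heterozygote and 24.4 CPM in wild-type. Its log2 ratio was 0.32 (0.26 to 0.38) in the homozygote, while its relatives Hnrnph1 and Hnrnpf had −0.24 and −0.16 there. Hnrnpl, a binder of CA repeats, had 52.8 CPM in the homozygote, 69.0 CPM in the heterozygote and 64.8 CPM in wild-type, and its close relative Hnrnpll had 15.1, 16.9 and 14.7 CPM. Hnrnpr was below wild-type in both mutants, at 27.5 CPM in the homozygote and 26.7 CPM in the heterozygote, against 30.8 CPM in wild-type. The AU-rich element binders Hnrnpd and Hnrnpdl had log2 ratios of −0.24 and −0.21 in the homozygote and 0.23 and 0.14 in the heterozygote. Hnrnpa1, Hnrnpa2b1, Hnrnpab, Hnrnpc and Hnrnpu lay between −0.14 and 0.11 in the homozygote and between 0.10 and 0.25 in the heterozygote. Of the KH domain genes, Hnrnpk and Pcbp1 had ratios of −0.14 and −0.06 in the homozygote and 0.11 and 0.20 in the heterozygote.

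U2AF is the dimer that marks the 3′ splice site. U2af1, its small subunit, which reads the terminal AG, had 36.3 CPM in the homozygote, 47.6 CPM in the heterozygote and 37.8 CPM in wild-type, a log2 ratio of 0.32 in the heterozygote. U2af2, its large subunit, which binds the polypyrimidine tract, had 16.4, 18.2 and 16.9 CPM in the same order.

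Exon usage was compared over parts with enough reads. Of the 920 parts, 812 had at least 20 inclusion and exclusion reads in each of the 3 libraries and 652 had at least 100. A part was called variable where it had at least 20 reads in each library and a PSI between 5% and 95% in 1 library or more, and 191 parts of 30 genes were variable. Pcbp1, an intronless gene, had none. The variable parts overlapped coding sequence (68 parts) or lay in noncoding stretches of coding transcripts (47) or in annotated retained introns (38). Others lay in exons of transcripts marked for NMD that no protein-coding transcript holds (25) and in other noncoding transcripts (13).

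Large differences in PSI were rare among the 31 members with rows of their own. With at least 20 reads in both libraries, 3 of 815 parts differed by at least 20 points between homozygote and wild-type (2 higher, 1 lower), where 1.51% of all parts did. Between heterozygote and wild-type, 1 of 817 parts did, and it was lower (1.58% of all parts). Between homozygote and heterozygote it was 5 of 819 (4 higher in the homozygote, 1 lower), against 1.53% of all parts. With at least 100 reads and a limit of 10 points, 5 of 658 parts differed between homozygote and wild-type (1 higher, 4 lower), against 1.93% of all parts. By the same rule, 7 of 661 parts differed between heterozygote and wild-type (4 higher, 3 lower), against 2.15%, and 3 of 663 between homozygote and heterozygote (1 higher, 2 lower), against 2.17%. Among variable parts alone, the 5, 7 and 3 parts were 3.27% of 153, 4.61% of 152 and 1.99% of 151 member parts, where 15%, 16.5% and 16.7% of the variable parts of all genes passed the rule. Over the 149 variable member parts with 100 reads in each library, the median size of the difference was 2.89 points in the homozygote and 2.65 points in the heterozygote, and over the 12722 variable parts of other genes it was 3.84 and 3.97 points. Depth was not matched between members and other genes. The members' NMD-only and retained-intron parts were more deeply read, as given below, and counting error is smaller in a deeper part. The part of depth in these shares and medians was not tested.

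**Figure D3:**
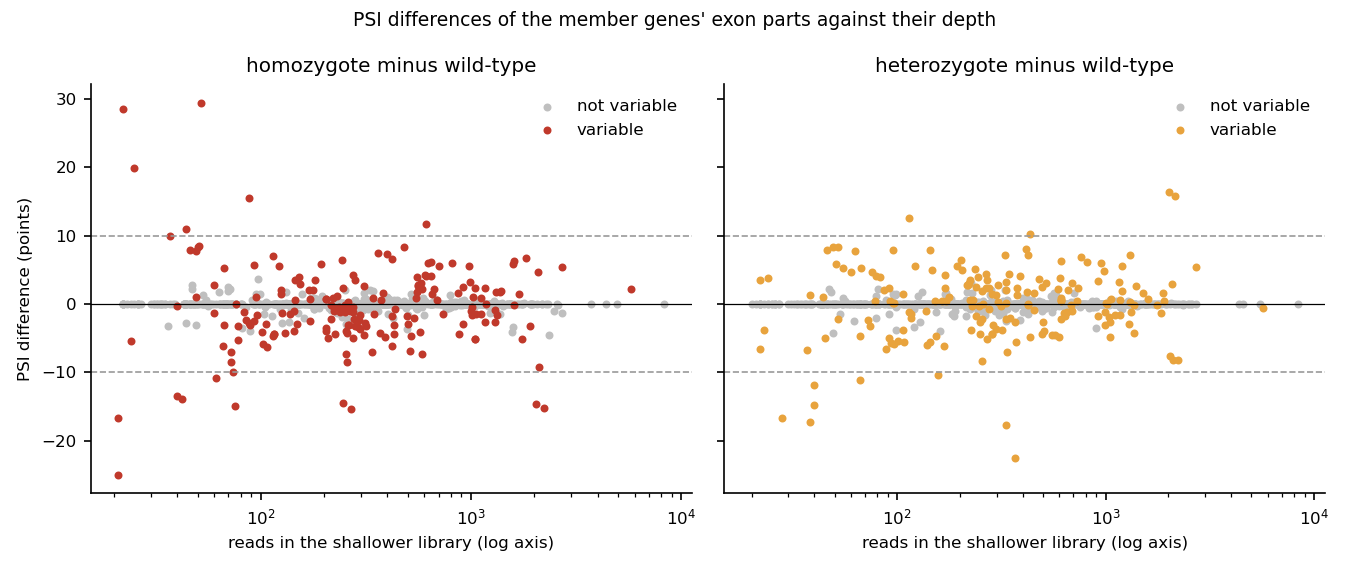
PSI difference from wild-type (points) of the members' parts against the reads of the shallower library (log axis), for the homozygote and the heterozygote, with variable parts in colour, other parts in grey and dashed lines at 10 points. Most parts lie within 10 points, and several of the points beyond 20 have fewer than 100 reads.

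Of the differences past 10 points, the most deeply read in the shallower library was the skipping of the 63-base and 81-base exons of Hnrnpa2b1 shown above. PSI of the 63-base exon was 85.0% (83.4 to 86.6) in the homozygote, 92.1% (90.8 to 93.2) in the heterozygote and 99.6% (99.1 to 99.9) in wild-type. The 81-base exon had 84.5% in the homozygote, 91.6% in the heterozygote and 99.7% in wild-type. The intervals of the 3 libraries did not overlap, with the heterozygote between the homozygote and wild-type. The differences of the homozygote from wild-type were −14.6 points (−16.3 to −13.0) and −15.2 points (−16.9 to −13.5), and those of the heterozygote were −7.58 and −8.13 points. Exclusion reads numbered 281 for either exon in the homozygote, 155 and 154 in the heterozygote, and 5 and 4 in wild-type. The table does not show whether the same reads skipped both exons. A 51-base coding part further downstream (chr6:51464161-51464211) had 79 exclusion reads in the homozygote, 3 in the heterozygote and 0 in wild-type, with PSI of 94.9%, 99.8% and 100%. The 72-base coding part next to it had 81, 3 and 0 exclusion reads in the same order. A 12-base coding part upstream of the 81-base exon (chr6:51466303-51466314) had 78, 0 and 0, and the adjoining 90-base part had 18, 0 and 0. The homozygote's differences from wild-type in these parts were −4.46 points (−5.50 to −3.53), −4.13 points (−5.13 to −3.24) and −1.05 points (−1.64 to −0.552). Skipping reads in the homozygote were thus not confined to the 63-base and 81-base exons. The 36-base coding exon near the start, which separates the B1 protein from A2, had 11.1% in the homozygote, 9.54% in the heterozygote and 9.29% in wild-type. A 40-base noncoding part near the 3′ end was 10.9 points higher in the homozygote than in the heterozygote, with 38.2% in the homozygote, 27.3% in the heterozygote and 32.1% in wild-type.

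In Srsf5 an intron was kept more often in the mutant libraries than in wild-type, most of all in the heterozygote. The 376-base part of this annotated retained intron (chr12:80948129-80948504) had a PSI of 28.0% (26.0 to 30.1) in the homozygote, 38.1% (36.0 to 40.3) in the heterozygote and 21.7% (20.2 to 23.2) in wild-type. The adjoining 590-base part had 24.8% in the homozygote, 33.9% in the heterozygote and 18.1% in wild-type. The heterozygote was highest in both parts, wild-type lowest, and the intervals did not overlap. The differences from wild-type in the 376-base part were 6.27 points (3.75 to 8.83) in the homozygote and 16.4 points (13.8 to 19.04) in the heterozygote. The 263-base part just upstream had 14.3% in the homozygote, 20.5% in the heterozygote and 13.3% in wild-type. The total level of the gene was lowest in the homozygote, as given above, so that level and retention did not follow 1 order across the libraries.

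Srsf1 differed in parts that overlap coding sequence in some annotated transcripts. Its 378-base part (chr11:88049599-88049976) had a PSI of 99.5% (97.0 to 100) in the homozygote, 94.1% (90.4 to 96.7) in the heterozygote and 87.7% (82.2 to 92.1) in wild-type. The homozygote was 11.7 points (6.74 to 17.3) above wild-type, a difference carried by 1 exclusion read in the homozygote, 14 in the heterozygote and 21 in wild-type. The 187-base part next to it had 100% in the homozygote, 95.5% in the heterozygote and 91.7% in wild-type, and the noncoding parts further along, with 555 to 884 reads, had counting intervals of the difference that included 0.

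Hnrnpf, whose protein binds G tracts, differed in its 5′ noncoding exons. A 300-base part (chr6:117906849-117907148) had a PSI of 45.5% (38.8 to 52.6) in the homozygote, 38.4% (33.3 to 43.9) in the heterozygote and 60.9% (54.2 to 67.5) in wild-type, and the adjoining 60-base part had 62.6% in the homozygote, 59.4% in the heterozygote and 77.1% in wild-type. Both mutants were below wild-type and their intervals overlapped each other. The differences from wild-type in the 300-base part were −15.4 points (−24.8 to −5.62) in the homozygote and −22.5 points (−30.8 to −13.8) in the heterozygote. A 32-base part upstream (chr6:117906795-117906826) had 100% in the homozygote, 68.5% in the heterozygote and 70.6% in wild-type, from 57, 89 and 52 reads, and the 13 bases next to it had 100% in the homozygote, 79.6% in the heterozygote and 84.5% in wild-type. In 4 adjoining coding parts, skipping reads were found in wild-type alone. PSI there was 100% in both mutants and 93.9% to 94.6% in wild-type, with 34 to 36 exclusion reads per part. The coding part of 72 bases that follows had 27 exclusion reads in the heterozygote, 2 in wild-type and 0 in the homozygote. A 61-base noncoding part upstream had 23 in the homozygote, 2 in the heterozygote and 38 in wild-type, so that skipping reads near these parts were not particular to wild-type.

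A 441-base 3′ noncoding part of Hnrnpdl had 21.8% in the homozygote, 30.5% in the heterozygote and 20.2% in wild-type, with the heterozygote 10.3 points (5.22 to 15.4) above wild-type. A 39-base coding part of Hnrnpd had 65.7% in the homozygote, 56.7% in the heterozygote and 67.1% in wild-type. The interval of the heterozygote's difference (−21.5 to 1.15) included 0. The 1-base part at the edge of a Hnrnph3 exon had 43.4% in the homozygote, 60.6% in the heterozygote and 48.1% in wild-type, while the 44 bases beside it had 50.5% in the homozygote, 59.3% in the heterozygote and 51.5% in wild-type. At 20 to 99 reads, a 6-base coding part of Tra2a had 70.5% in the homozygote, 91.7% in the heterozygote and 95.5% in wild-type, from 21 to 25 reads, and a 411-base part of Hnrnpu had 88.7% in the homozygote, 63.7% in the heterozygote and 60.2% in wild-type, from 22 to 34 reads. The adjoining 489-base part of Hnrnpu had 83.4% in the homozygote, 56.9% in the heterozygote and 63.5% in wild-type. For the Tra2a part and both Hnrnpu parts, the intervals of the differences from wild-type included 0 in both mutants.

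**Figure D4:**
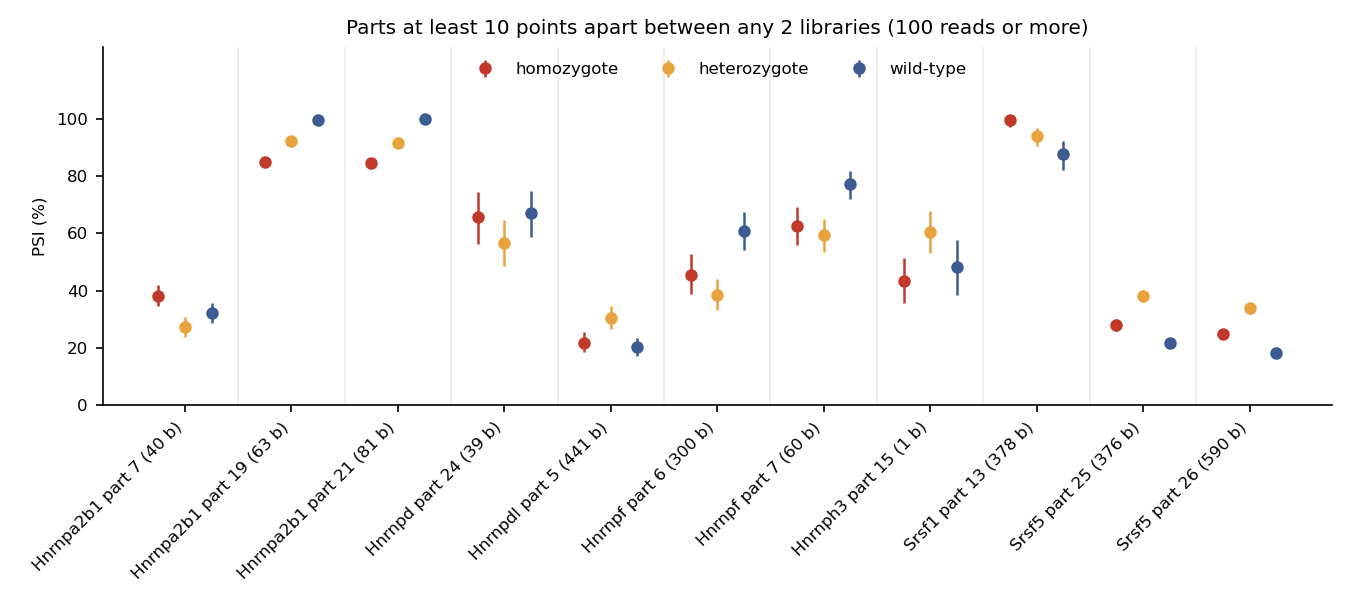
PSI (%) with 95% counting intervals in the homozygote, the heterozygote and wild-type for the 11 parts that differed by at least 10 points between any 2 libraries with at least 100 reads in each, by gene, part number in the table and length. The homozygote is lowest and wild-type highest in the 63-base and 81-base Hnrnpa2b1 exons, and the Srsf5 intron parts are highest in the heterozygote.

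The poison exons shown above were spliced into a minority of transcripts in every library. The table held 35 exons of 20 genes that lie in NMD transcripts and in no protein-coding transcript, called NMD-only here. They were from 2 to 1011 bases long with a median of 146 bases, and 30 of them had 20 reads in each library. Some may lie in other noncoding transcripts as well, and an exon was not required to hold the stop codon itself. In 15 genes such an exon reached a PSI of 5% in at least 1 library. In Hnrnpa1 and Hnrnpdl the part of most reads had no exclusion read in any library, and in the other 13 genes it lay between 2.69% and 34.01%. Of these 13 exons, 12 had a lower PSI in the homozygote than in wild-type, with an interval below 0 for 7. In the heterozygote 8 had a lower PSI than in wild-type, with an interval below 0 for 3. The same choice of exons was not made in other genes, so that these counts have no share over all genes beside them. Hnrnpd and Srsf6 reached 5% in the heterozygote alone, and Srrm2 in the heterozygote and wild-type but not in the homozygote. The medians of the 13 differences were −3.05 points in the homozygote and −1.98 points in the heterozygote. Both contrasts share the 1 wild-type library, which was also the library with intestinal transcripts.

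Over all 39 NMD-only parts of 18 members with 20 reads, the median difference was −0.99 points in the homozygote (25 parts lower, 9 higher, 5 equal) and 0 in the heterozygote (18 lower, 16 higher, 5 equal). With a minimum of 100 reads the homozygote's median was −0.399 points. The median over 2372 NMD-only parts of other genes was 0 in both, with 40.4% lower in the homozygote and 37.6% lower in the heterozygote. A counting interval that left out 0 was found for 11 of 39 member parts in the homozygote (9 lower, 2 higher), against 15.2% of all such parts, and for 4 of 39 in the heterozygote (all lower), against 16.3%. The member parts were more deeply read, with a median of 171 reads in the homozygote, 258 in the heterozygote and 219 in wild-type, against 102, 102 and 100 reads in other genes, and a deeper part has a narrower interval.

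Among SR proteins, Srsf7 included its poison exon most. The 324-base part of this 460-base exon had 24.5% (21.6 to 27.7) in the homozygote, 34.01% (31.1 to 37.1) in the heterozygote and 31.9% (28.3 to 35.7) in wild-type, so that the homozygote was below the other libraries. Its difference was −7.36 points (−12.2 to −2.57) from wild-type and −9.52 points (−13.8 to −5.19) from the heterozygote. The 136-base part that holds the stop codon had 25.5% in the homozygote, 31.6% in the heterozygote and 31.7% in wild-type. Srsf3 was read more deeply, with 1171 to 1581 reads, and the most used part of its 456-base exon had 9.34% (8.31 to 10.5) in the homozygote, 10.3% (9.21 to 11.4) in the heterozygote and 11.9% (10.6 to 13.4) in wild-type. The difference of the homozygote from wild-type was −2.57 points (−4.34 to −0.825). A second such exon of Srsf3, of 70 bases, had 7.56% in the homozygote, 8.03% in the heterozygote and 8.07% in wild-type. The interval of its difference in the homozygote was −2.42 to 1.37 points. The 117-base exon of Srsf11, which encodes a U2AF-interacting SR protein, had 13.7% in the homozygote, 12.7% in the heterozygote and 21.1% in wild-type. Both mutants were below wild-type, with differences of −7.32 points (−12.9 to −1.89) in the homozygote and −8.36 points (−14.0 to −2.82) in the heterozygote. A second such exon of Srsf11, of 109 bases, had 8.09% in the homozygote, 7.49% in the heterozygote and 6.96% in wild-type. The exons of Srsf4 and Srsf9 had 13.8% and 8.59% in the homozygote, 16.9% and 10.1% in the heterozygote, and 16.7% and 8.68% in wild-type. In Srsf6 the 268-base poison exon was divided in a 165-base part with 2.89% in the homozygote, 8.35% in the heterozygote and 3.99% in wild-type, and a 103-base part with 4.50% in the homozygote, 7.10% in the heterozygote and 4.79% in wild-type. The first of these was 4.36 points higher in the heterozygote than in wild-type (1.53 to 7.19). It overlaps annotated coding sequence and is therefore in neither the 39 NMD-only parts nor the 13 exons counted above, which hold the 103-base part.

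Among the 13 exons, Tra2a showed the largest difference from wild-type, at the lowest depth. Its 306-base exon had 6.52% (2.71 to 13.3) in the homozygote, 9.33% (5.26 to 15.4) in the heterozygote and 20.4% (14.3 to 28.1) in wild-type, from 42, 66 and 95 reads. Both mutants were below wild-type, with differences of −13.8 points (−22.5 to −4.75) and −11.0 points (−19.8 to −2.47), and they overlapped each other. The 276-base exon of Tra2b had 13.0% in the homozygote, 11.6% in the heterozygote and 16.1% in wild-type, with a difference of −4.44 points (−7.64 to −1.32) in the heterozygote. The Srrm1 exon of 282 bases had 13.7% in the homozygote, 15.4% in the heterozygote and 18.0% in wild-type. The 178-base part of the 261-base Srrm2 exon had 2.80% in the homozygote, 9.51% in the heterozygote and 12.7% in wild-type from 78, 105 and 74 reads. A second such exon of Srrm2, of 95 bases, had 19.8% in the homozygote, 25.7% in the heterozygote and 21.1% in wild-type from 60 to 72 reads. Its difference in the homozygote was −1.27 points (−14.8 to 12.3). A second such exon of Srrm1, of 38 bases and not among the 13, had the largest rise over wild-type among the 39 NMD-only parts, with 12.8% in the homozygote, 2.83% in the heterozygote and 1.76% in wild-type from 44 to 55 reads. Its difference was 10.99 points (0.149 to 23.3) in the homozygote, opposite to that of the 282-base exon, which was −4.29 points (−8.41 to −0.262).

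Among hnRNPs, the 70-base exon of Hnrnpl had 11.2% in the homozygote, 10.2% in the heterozygote and 12.1% in wild-type, and both intervals of the difference included 0. The 83-base exon of Hnrnpll had 5.30% in the homozygote, 11.5% in the heterozygote and 13.8% in wild-type from 72 to 95 reads, with a difference of −8.50 points (−17.5 to −0.645) in the homozygote. Hnrnpd had 3.46% in the homozygote, 5.45% in the heterozygote and 2.69% in wild-type, and was the 1 exon of the 13 with a higher value in the homozygote than in wild-type.

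**Figure D5:**
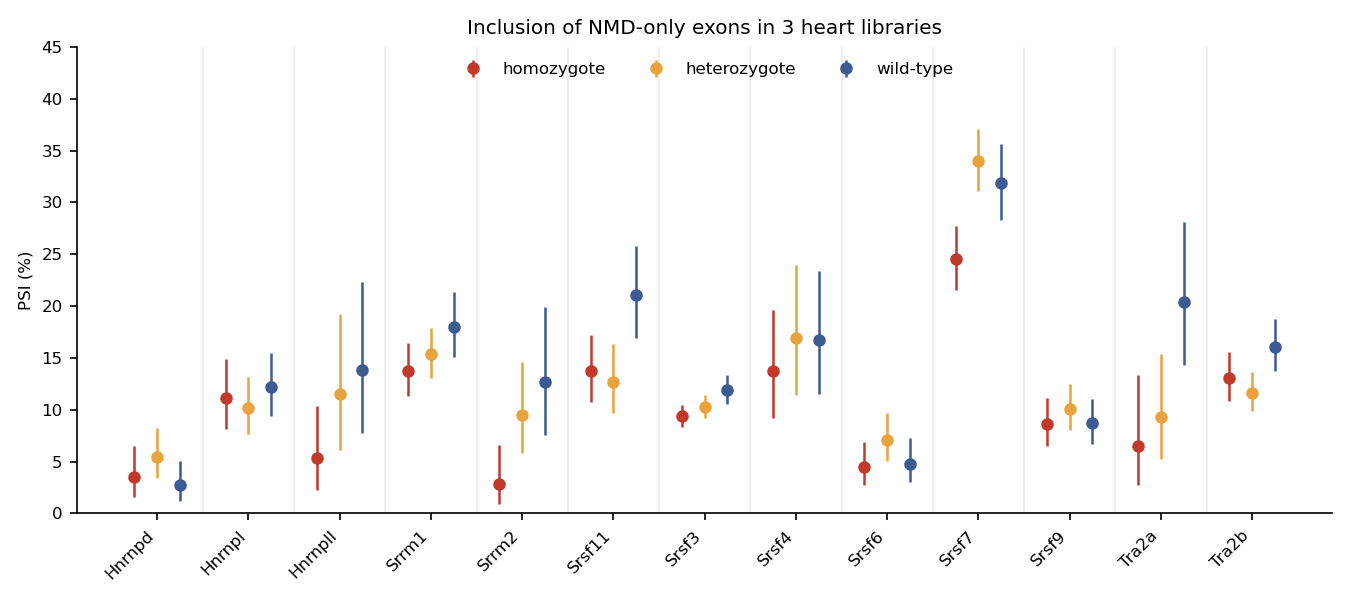
PSI (%) with 95% counting intervals of the NMD-only part of most reads in 13 genes, in the homozygote, the heterozygote and wild-type. The homozygote point is below the wild-type point in 12 of the 13 genes, Srsf7 is included most in each library, and most intervals overlap.

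Retained introns were at low PSI in most members. The median over 118 parts of 24 genes was 0.841% in the homozygote, 1.01% in the heterozygote and 1.04% in wild-type, against 0.712%, 1.04% and 0.897% over 16566 parts of other genes. In the homozygote 68 member parts were lower and 32 higher than in wild-type, with a median difference of −0.11 points, and in the heterozygote 50 were lower and 51 higher, with a median of 0. Of the parts of other genes, 45.3% were lower in the homozygote and 36.9% in the heterozygote, and both medians were 0. An interval that left out 0 was found for 30 of 118 member parts in the homozygote (24 lower, 6 higher), against 18.9% of all such parts, and for 24 of 118 in the heterozygote (14 lower, 10 higher), against 20.3%. These parts were more deeply read in the members too (medians of 336 to 415 reads, against 107 to 113). The highest PSI among these introns was that of Srsf5 in both mutants, at 28.0% in the homozygote and 38.1% in the heterozygote, while in wild-type a 266-base Srrm2 part of 40 reads had 35.2%. The 3595-base intron part of Tra2a had 23.1% in the homozygote, 22.2% in the heterozygote and 20.5% in wild-type, and the 234-base intron part behind the Srsf7 poison exon had 14.6% in the homozygote, 23.5% in the heterozygote and 19.4% in wild-type.

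In U2af1 the downstream 67-base exon was included less and the upstream one more in both mutants than in wild-type. The downstream exon had a PSI of 85.6% (81.6 to 89.0) in the homozygote, 87.9% (84.7 to 90.7) in the heterozygote and 92.5% (89.4 to 94.9) in wild-type. The upstream exon had 18.5% (15.1 to 22.4) in the homozygote, 19.05% (16.1 to 22.3) in the heterozygote and 11.04% (8.59 to 13.9) in wild-type. The intervals of the mutants overlapped each other in both exons. Wild-type lay apart from both mutants in the upstream exon, while in the downstream exon its interval overlapped that of the heterozygote. The upstream exon had differences from wild-type of 7.50 points (3.001 to 12.1) in the homozygote and 8.01 points (3.90 to 12.1) in the heterozygote. The 40-base exon between them, which creates an early stop, had 2.49% in the homozygote, 0.678% in the heterozygote and 0.585% in wild-type.

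Other variable parts, chosen after their values were seen, differed by less than 10 points. The 141-base exon of Hnrnpab had 34.4% in the homozygote, 34.8% in the heterozygote and 39.6% in wild-type, with a difference of the homozygote from wild-type of −5.11 points (−9.18 to −1.04). The 147-base exon of Hnrnpd had 43.5% in the homozygote, 47.0% in the heterozygote and 52.0% in wild-type, and the 39-base insertion of Hnrnpc, which separates its C1 and C2 proteins, had 28.0% in the homozygote, 31.9% in the heterozygote and 29.5% in wild-type. For Hnrnpc the interval of the homozygote's difference was −5.86 to 2.95 points. The 159-base exon of Hnrnpa1 had 16.3% in the homozygote, 15% in the heterozygote and 18.7% in wild-type, and a 60-base coding part of Hnrnpk had 47.8% in the homozygote, 51.9% in the heterozygote and 50.3% in wild-type from 1296 to 1547 reads. The 139-base exons of the relatives Hnrnph1 and Hnrnph3 had 93.5% and 81.3% in the homozygote, 91.7% and 81.4% in the heterozygote, and 89.3% and 88.4% in wild-type. The 98-base part at the alternative end of Srsf10, a repressor when dephosphorylated, had 53.3% in the homozygote, 50.9% in the heterozygote and 47.0% in wild-type, and a 166-base exon of Hnrnpr had 44.3% in the homozygote, 44.9% in the heterozygote and 42.9% in wild-type. A 502-base 3′ noncoding part of Srsf2, known as SC35, had 67.7% (64.3 to 71.0) in the homozygote, 68.6% (65.4 to 71.7) in the heterozygote and 76.8% (73.4 to 80.1) in wild-type, with differences from wild-type of −9.16 and −8.23 points. A pair of adjoining coding parts of U2af2, of 18 and 27 bases, had 97.6% and 97.3% in the homozygote, 94.5% and 94.4% in the heterozygote, and 100% in wild-type.

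The 3 members joined with a neighbour were read from parts that lie in their own exons alone. Their parts in coding transcripts were not divided into coding and noncoding parts. Hnrnpa3, joined with a small RNA gene on chromosome 2, had 36.4 CPM in the homozygote, 38.1 CPM in the heterozygote and 35.4 CPM in wild-type over 21 of 25 joined parts. Hnrnpm, joined with an overlapping gene on chromosome 17, had 67.6 CPM in the homozygote, 74.0 CPM in the heterozygote and 64.8 CPM in wild-type over 46 of 71 parts, and Pcbp2, on chromosome 15, had 86.0 CPM in the homozygote, 116 CPM in the heterozygote and 95.6 CPM in wild-type over 67 of 72 parts. Hnrnpa3 had 1 variable part, a 66-base exon with a PSI of 34.4% in the homozygote, 39.2% in the heterozygote and 29.1% in wild-type from 61 to 79 reads. In Hnrnpm, 3 adjoining parts in coding transcripts had 45.3% to 48.7% in the homozygote and 48.5% to 52.2% in the heterozygote. Wild-type had 41.2% to 45.1% there, and the intervals of the differences included 0. A 53-base part of Hnrnpm in coding transcripts (chr17:33670081-33670133) passed the rule of 10 points and 100 reads. It had 95.03% in the homozygote, 99.5% in the heterozygote and 88.4% in wild-type from 224, 262 and 246 reads. Its differences from wild-type were 6.67 points (0.476 to 12.8) in the homozygote and 11.1 points (6.23 to 16.6) in the heterozygote. A 73-base part of Pcbp2 in coding transcripts had 15.8% in the homozygote, 15.5% in the heterozygote and 8.59% in wild-type. Its difference in the homozygote was 7.16 points (1.56 to 12.7). In 3 adjoining parts of Pcbp2 in coding transcripts, of 9, 11 and 4 bases, PSI was 50.6% to 54.6% in the homozygote. These parts had 60.6% to 68.9% in the heterozygote and 38.4% to 43.0% in wild-type, from 44 to 92 reads. They passed the rule of 20 points and 20 reads in the heterozygote, with differences of 22.2 points (2.41 to 40.1), 26.1 points (7.57 to 42.9) and 25.9 points (7.51 to 42.8), and the homozygote's intervals included 0. A 231-base retained-intron part of Pcbp2 had 5.23% in the homozygote, 9.02% in the heterozygote and 1.31% in wild-type from 330 to 517 reads, with differences from wild-type of 3.92 points (2.21 to 5.84) in the homozygote and 7.71 points (5.84 to 9.69) in the heterozygote.

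Few genes of the surrounding pathways were far from wild-type by the same measure, as among all genes. Of all genes, 9.38% in the homozygote and 6.83% in the heterozygote reached a log2 ratio of 0.5 in size. The medians of all genes were −0.08 in the homozygote and 0.0056 in the heterozygote. Of 34 core spliceosome genes, 32 were measured, 0 reached a log2 ratio of 0.5 in size in either mutant, and the medians were 0.0046 in the homozygote and 0.14 in the heterozygote. Of 10 kinases and import factors of SR proteins, 9 were measured, with medians of −0.02 in the homozygote and 0.22 in the heterozygote. Clk1 and Clk2, kinases that phosphorylate SR proteins, passed 0.5 in the heterozygote with library totals as the scale. Clk1 had 43.7 CPM in the homozygote, 65.0 CPM in the heterozygote and 44.4 CPM in wild-type (log2 ratios −0.03 and 0.54), and Clk2 had 11.3, 18.1 and 11.5 CPM (−0.02 and 0.61). In both genes the heterozygote alone was high, the order of libraries found for Srsf7. Clk3, of the same list, had log2 ratios of −0.18 in the homozygote and −0.05 in the heterozygote. Ratios of Clk1 and Clk2 with totals that leave out globin and mitochondrial genes are not given here. With those totals no member, Srsf7 included, reached 0.5. Of 14 factors of NMD and the exon junction complex, 13 were measured with medians of −0.14 and −0.03 and 0 past 0.5 in size. Of 31 related RNA-binding proteins, 26 passed the minimum of 1 CPM with medians of −0.11 in the homozygote and 0.12 in the heterozygote, and Pcbp3 alone was past 0.5 in size, with 2.28 CPM in the homozygote, 5.10 CPM in the heterozygote and 4.14 CPM in wild-type.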

How the data were processed

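Heart RNA was made into 3 libraries (1 per genotype) with the SMART-seq v4 and Nextera XT kits and sequenced on a NovaSeq instrument. According to the submitters' processing notes, reads were handled with cutadapt 1.1, Trimmomatic 0.32, TopHat2 2.0.14 and Bowtie 1.1.1 on GRCm38; the annotation release and the counting program are not given in the sources used here. The authors deposited inclusion and exclusion read counts per exonic part without normalization. The authors also deposited PSI as a fraction, which the counts gave again to within 5e-05 points when divided by read positions. The deposited length column gives the bases of each part. Of the per-sample columns, 3 (PSI at a later age with no sample record) were not used, and 2 columns of the authors' own PSI differences were not used.

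PSI in percent and its differences (mutant minus wild-type) were computed with exact Clopper-Pearson intervals of the inclusion share at the 95% level, carried to the PSI scale and combined by Newcombe's method. Parts were placed on GENCODE M21 transcripts by position. Gene levels were inclusion reads summed over parts of 1 gene, scaled to 1000000 per library (CPM), with Poisson intervals; ratios used a pseudocount of 1 CPM and a minimum mean of 1 CPM. The functions were tested on simulated data. No test across genes was possible with 1 library per genotype. Python 3.11.15, numpy 2.4.6, pandas 2.3.3, scipy 1.17.1 and matplotlib 3.10.9 were used. The genes and lists were chosen with earlier results of these data known. Genes described in full are those with a part past 10 points and 100 reads, an NMD-only part of at least 5% or a log2 ratio past 0.5; the others named were chosen after their values were seen, as were the 3 joined genes.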

Additional observations from a re-analysis of the deposited data

How the results depend on the processing

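Of 59 alternative values, 43 stayed within 1.5 times of a count or within the counting error of a single part or gene for a median. These include medians that changed in size: that of NMD-only parts in the homozygote was −0.399 points with a minimum of 100 reads and −1.27 without length normalization, and that of retained-intron parts was −0.323 without length normalization. Without length normalization, counts of parts at least 10 points apart were 11 (heterozygote against wild-type) and 17 (homozygote against heterozygote), and counts at least 20 points apart were 7, 2 and 3 for homozygote against wild-type, heterozygote against wild-type and homozygote against heterozygote. With adjoining parts joined into 1 exon represented by its longest part, which leaves fewer parts, the counts past 10 points were 1, 3 and 0 in the same order of comparisons, and those past 20 points were 1 for homozygote against wild-type and 1 for homozygote against heterozygote. With a minimum of 50 reads, 1 part of homozygote against wild-type and 2 of homozygote against heterozygote stayed past 20 points. The median log2 ratio of the genes in the homozygote turned to 0.035 with median-of-ratios scaling. With that scaling 16 of 31 genes were above 0 in the homozygote. With totals that leave out globin and mitochondrial genes, chosen after seeing the data, the heterozygote's median was 0.078 and 0 genes were past 0.5, and over parts with a PSI of at least 95% 0 genes were past 0.5 as well. The cause was not tested. No paired analysis was possible because each genotype has 1 library. Depth limits exons under 100 reads, among them the Tra2a and Hnrnpll poison exons, where counting intervals of the difference span over 15 points.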
